A study of Homo sapiens with 8 samples.

Results

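The 9 genes described here encode transcription factors that set and hold the identity of myeloid blood cells: SPI1, CEBPA, CEBPB, CEBPD, RUNX1, IRF8, GFI1, MYB and KLF4. They were chosen by symbol, and all 9 are among the 11530 genes of the deposited table and among the 11257 that could be tested. The RNA came from MonoMac 6, an established human cell line derived from acute monocytic leukaemia. The APRIL group (4 libraries) was given human APRIL, a cytokine of the tumour necrosis factor family encoded by TNFSF13, for 24 h at a dose of 100 ng/mL in RPMI medium without serum. The control group (4 libraries) did not receive APRIL, and the labels do not give the serum content of its medium, so the cytokine and a change of serum cannot be told apart. The stock cultures grew with 10% serum, and the series text puts baseline cytokines, which it does not name, in the medium of both groups. All 8 libraries are from this 1 line. The table's columns carry the group and no library number, so a library is called by its place among the columns of its group, such as APRIL column 3. Nothing says that the libraries came from separate cultures, so p-values reflect only how these libraries vary, and that variation may be technical.

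Myeloid cells arise from progenitors through the combined action of a few factors that switch each other on and off. PU.1 (the product of SPI1) and the C/EBP proteins open the genes of monocytes and granulocytes. RUNX1 acts upstream of them in stem and progenitor cells, and MYB keeps progenitors dividing and immature. IRF8 and KLF4 turn progenitors towards monocytes, while GFI1 is a repressor that favours granulocytes. In acute myeloid leukaemia, mutation or repression of such factors is a known way in which maturation is blocked.

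None of the 9 genes passed the adjusted threshold of 0.05 in limma, a linear model fitted over all genes, and neither did any of the other tested genes (0%). Of the 9 genes, 1 had a higher value with APRIL at an unadjusted p under 0.05 (CEBPD) and 1 a lower value (RUNX1), where 6.25% and 5.69% of all tested genes did. In 6 of the 9 the change, APRIL minus control in log2 units, was positive, as in 49.3% of all tested genes. The median change of the 9 was +0.16, against -0.0053 over all tested genes. Both unadjusted results were lost without APRIL column 3, without control column 1 or without control column 3. CEBPD alone was under 0.05 without APRIL column 1, without APRIL column 2 or without control column 2, and RUNX1 alone without APRIL column 4. RUNX1 was also lost when limma was run with neither trend nor robust variance, CEBPD with an equal-variance test per gene and with library quality weights, and both when trends with transcript length and GC content were removed. Voom gave no value for RUNX1. Over all genes 1344 (11.9%) had an unadjusted p under 0.05. That count fell to 507 when control column 1 was left out, 669 when APRIL column 4 was and 813 when control column 3 was, and it grew to 2247 when APRIL column 2 was. Voom, which models recovered reads, called 0 genes, and limma with library quality weights called 4, none of them among the 9.

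The depth behind these values was recovered from the table, whose values resolve into whole reads for 11101 of 11530 genes. The recovered total ran from 883305 to 5093138 reads in the APRIL libraries and from 1316600 to 2825913 in the control libraries. APRIL column 3 was the shallowest. It also lay farthest from the other libraries, with a median absolute deviation of 0.40 log2 units from each gene's mean over the 8 libraries, followed by control column 1 at 0.29, while the other libraries lay between 0.096 and 0.16. Markers of several cell types were looked up by symbol, and the gene filter of the table is not given. The presence of a symbol therefore does not establish the cell type. Of 13 monocyte markers 10 were in the table, among them CD14, ITGAM, CSF1R and LYZ, and CD68, CD4 and FCN1 were not. Of 8 granulocyte precursor markers 5 were present, of 9 B and plasma cell markers 6, of 9 T and NK cell markers 2 and of the erythroid and stromal markers 0.

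PU.1, which opens chromatin at myeloid enhancers, had transcripts at 207 or more recovered reads in every library. SPI1 stood at 5.43, 5.20, 5.38 and 5.58 in APRIL columns 1 to 4, against 4.83, 5.32, 5.22 and 5.38 in control columns 1 to 4, all as deposited log2 values. The groups overlapped, and control column 1 was the lowest of the 8. The change was +0.21 ± 0.16 (SE; 95% interval -0.14 to 0.56; limma adjusted p = 0.483). Leaving out control column 1 brought it to +0.092.

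The 3 C/EBP genes shared a pattern. CEBPA encodes the factor that commits progenitors to granulocytes and monocytes, CEBPB drives macrophage maturation and emergency granulocyte production, and CEBPD is induced early in inflammation and in granulocyte maturation. CEBPA stood at 7.68, 7.45, 8.29 and 8.49 in APRIL columns 1 to 4, against 7.42, 7.92, 7.94 and 7.87 in control columns 1 to 4. CEBPB stood at 1.61, 1.75, 2.81 and 2.32 in the APRIL columns, against 1.48, 2.27, 1.56 and 1.84 in the control columns. CEBPD stood at 8.57, 8.34, 9.28 and 9.09 in the APRIL columns, against 8.07, 8.47, 8.23 and 8.52 in the control columns. For each of the 3 genes APRIL columns 3 and 4 were the highest of the 8 libraries, control column 1 was the lowest, and APRIL columns 1 and 2 lay within the range of the control libraries apart from APRIL column 1 for CEBPD, which lay just above it.

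The changes were +0.19 ± 0.23 for CEBPA, +0.33 ± 0.29 for CEBPB and +0.49 ± 0.21 for CEBPD (SE). Their 95% intervals ran from -0.33 to 0.71, from -0.31 to 0.98 and from 0.027 to 0.96. The limma adjusted p-values were 0.660, 0.543 and 0.400, and the exact two-sided permutation p for CEBPD was 0.114, where 70 relabelings of 8 libraries can give 0.0286 at the least. CEBPB rested on few reads, 42 to 129 in the APRIL libraries and 39 to 76 in the control libraries. CEBPD had 139 to 463 reads in the APRIL libraries and 129 to 290 in control. Without APRIL column 4 CEBPA was at +0.020, and without APRIL column 3 CEBPB was at +0.10 and CEBPD at +0.34. Without both APRIL column 3 and control column 1, a setting chosen after seeing the data, CEBPA was at -0.036, CEBPB at +0.003 and CEBPD at +0.26.

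**Figure D1:**
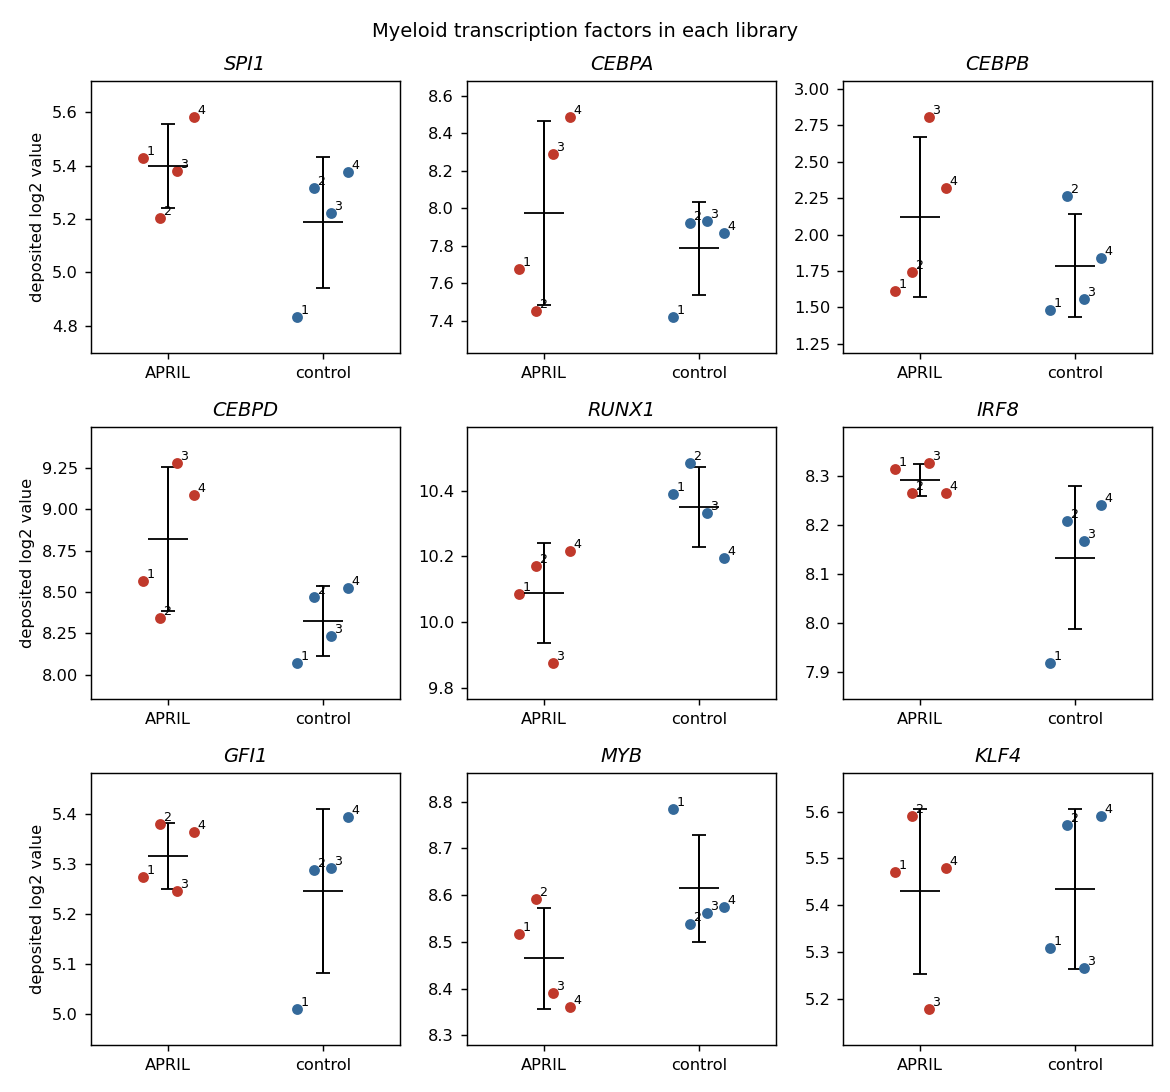
Deposited log2 value (vertical axis, its range set for each gene) of the 9 factors in APRIL libraries (red) and control libraries (blue); small numbers give the column within the group, and bars the mean and SD (n = 4). Only IRF8 has every APRIL value above every control value, and control column 1 is the lowest library for SPI1, the 3 C/EBP genes, IRF8 and GFI1.

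These 3 genes have no introns, and their RNA is among the richest in G and C of all tested genes. The longest annotated transcript of CEBPD is 70.02% G or C, of CEBPB 66.2%, of CEBPA 65.9% and of SPI1 65.2%, against a median of 47.9% over 10789 tested genes, so that each has more G and C than at least 97.0% of them. MYB, at 43.9%, and RUNX1, at 47.1%, lie below that median. The first 90 coding bases show the contrast and are given here for 2 C/EBP genes beside IRF8 and MYB, with every G and C in capitals. They are exonic, read 5′ to 3′ on the coding strand from the ATG start codon, and come from GENCODE release 29 (GRCh38): CEBPA at chr19:33302325-33302414 (minus strand), CEBPB at chr20:50191034-50191123 (plus strand), IRF8 at chr16:85903016-85903105 (plus strand) and MYB on chromosome 6 (plus strand), where the stretch crosses a splice junction.
CEBPA: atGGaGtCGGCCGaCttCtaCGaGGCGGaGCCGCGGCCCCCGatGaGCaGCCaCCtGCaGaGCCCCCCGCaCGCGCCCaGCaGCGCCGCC
CEBPB: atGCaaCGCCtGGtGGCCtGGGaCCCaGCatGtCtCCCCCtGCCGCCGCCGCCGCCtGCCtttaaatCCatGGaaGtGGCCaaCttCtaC
IRF8: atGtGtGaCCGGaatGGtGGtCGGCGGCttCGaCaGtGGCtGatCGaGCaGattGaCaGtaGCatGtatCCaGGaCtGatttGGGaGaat
MYB: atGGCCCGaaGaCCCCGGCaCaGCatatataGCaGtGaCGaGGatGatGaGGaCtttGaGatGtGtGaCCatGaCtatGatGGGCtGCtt
In these stretches 68 bases are G or C in CEBPA, 57 in CEBPB, 47 in IRF8 and 46 in MYB. Over the whole coding sequence the G and C share was 74.9% for CEBPA, 73.6% for CEBPB, 58.4% for IRF8 and 47.4% for MYB, and at the third codon position 94.97% for CEBPA, 95.4% for CEBPB, 71.8% for IRF8 and 45.5% for MYB.

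The 8 libraries also differed from each other along base composition and transcript length. Among all tested genes divided into deciles of GC content, the median change was -0.21 in the decile with the least G and C and +0.32 in the decile with the most. Over deciles of length it was +0.32 among the shortest transcripts and -0.26 among the longest. When the dependence of each library on length and on GC content was fitted and taken out (trends removed), the change of CEBPA was -0.19 ± 0.14, of CEBPB -0.13 ± 0.19, of CEBPD -0.024 ± 0.11 and of SPI1 -0.31 ± 0.16 (SE). All 4 thus had the opposite sign. CEBPD then stood at 8.51, 8.403, 8.67 and 8.66 in APRIL columns 1 to 4, against 8.85, 8.50, 8.47 and 8.52 in control columns 1 to 4, and control column 1 was the highest of the 8.

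**Figure D2:**
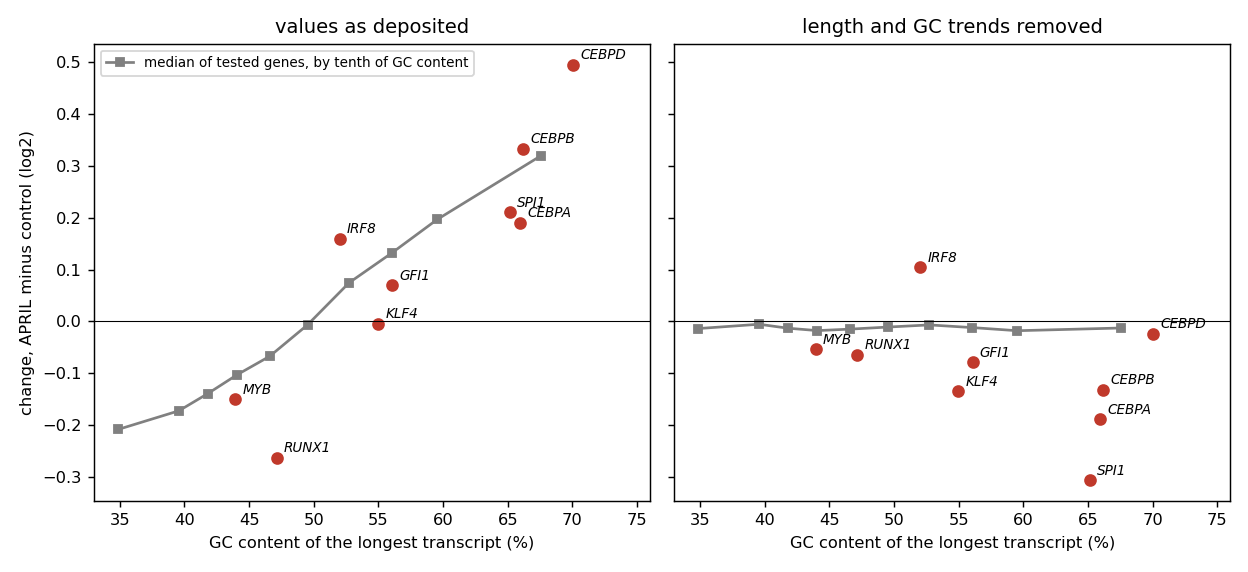
Change (APRIL minus control, log2; vertical axis) of each factor (red points) against the GC content of its longest transcript (percent; horizontal axis), as deposited on the left and with trends removed on the right; grey squares join the median change of all tested genes in each decile of GC content. On the left the grey line climbs from -0.21 to 0.32. CEBPB, CEBPD and IRF8 lie above the median of their decile there, and SPI1, CEBPA, RUNX1, GFI1, MYB and KLF4 below it. On the right IRF8 is the only factor above 0.

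RUNX1, which acts with its partner CBFB and is a frequent target of mutation and translocation in leukaemia, had the lowest change of the 9. RUNX1 stood at 10.09, 10.17, 9.88 and 10.22 in APRIL columns 1 to 4, against 10.39, 10.49, 10.33 and 10.19 in control columns 1 to 4. Only APRIL column 4 reached into the control range, lying just above control column 4. The change was -0.26 ± 0.12 (SE; 95% interval -0.52 to -0.0024; limma adjusted p = 0.400; exact two-sided permutation p = 0.0571). Its sign was negative without any 1 of the 8 libraries, from -0.31 to -0.19, and with the trends removed it was -0.064. The table gives values of 10 or more with fewer decimals, and whole reads could not be resolved for RUNX1. Its longest transcript, of 7274 bases, is longer than that of 88.8% of tested genes.

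MYB, the progenitor factor that many leukaemias depend on, also had a negative change. MYB stood at 8.52, 8.59, 8.39 and 8.36 in APRIL columns 1 to 4, against 8.79, 8.54, 8.56 and 8.57 in control columns 1 to 4. Control column 1 was the highest library and APRIL columns 3 and 4 were the lowest, the reverse of their places for the C/EBP genes. The change was -0.15 ± 0.11 (SE; limma adjusted p = 0.489), -0.093 when control column 1 was left out and -0.054 after removal of the trends.

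IRF8, which drives monocyte and dendritic cell fate together with PU.1, was the only one of the 9 whose groups did not overlap. IRF8 stood at 8.31, 8.26, 8.33 and 8.26 in APRIL columns 1 to 4, against 7.92, 8.21, 8.17 and 8.24 in control columns 1 to 4. Every APRIL value lay above every control value, as in 3.62% of all tested genes, though the lowest APRIL value was close to the highest control value. None of the 9 lay wholly below control, as 4.19% of all tested genes did. The APRIL libraries spread little, with a mean of 8.29 ± 0.032 (SD, n = 4) against 8.13 ± 0.15 in control. The change was +0.16 ± 0.11 (SE), or 1.12-fold, with a limma adjusted p of 0.471. The exact permutation test, two-sided, gave 0.0286, the smallest p that these 8 libraries can give. Every gene whose groups do not overlap gets this p, so it adds nothing to the lack of overlap. Without control column 1 the change was +0.087. With the trends removed it was +0.10, the only positive change among the 9 in that fit, and the groups then overlapped, at 8.30, 8.26, 8.29 and 8.21 in APRIL columns 1 to 4 against 8.05, 8.20, 8.17 and 8.23 in control columns 1 to 4.

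Sequence before an annotated start is shown for IRF8, whose groups were apart, and for CEBPA, whose window is richer in G and C. Each is the 250 bases before an annotated start in RefSeq (GRCh38.p14), 5′ to 3′ along the gene: IRF8 at chr16:85902580-85902829 (plus strand) and CEBPA at chr19:33302535-33302784 (minus strand). Capitals mark a match to a core motif of these factor families, searched on both strands: TTGCNNAA for C/EBP, GAGGAAGT for PU.1, TGTGGT for RUNX, TAACNG for MYB, the paired GAAA element for IRF, AAATCA for GFI1 and CCACCC for KLF.
IRF8: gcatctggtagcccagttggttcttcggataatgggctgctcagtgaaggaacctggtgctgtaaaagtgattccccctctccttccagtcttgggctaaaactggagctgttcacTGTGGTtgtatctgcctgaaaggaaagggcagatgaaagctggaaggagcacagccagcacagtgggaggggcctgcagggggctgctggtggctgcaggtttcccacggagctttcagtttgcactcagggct
CEBPA: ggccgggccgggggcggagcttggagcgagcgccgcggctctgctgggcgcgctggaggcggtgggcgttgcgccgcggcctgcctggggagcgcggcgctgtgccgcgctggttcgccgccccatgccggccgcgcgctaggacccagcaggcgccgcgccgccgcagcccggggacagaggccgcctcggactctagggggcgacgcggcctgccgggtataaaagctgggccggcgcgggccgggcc
The IRF8 window held 1 RUNX match, which 10.98% of 35116 RefSeq promoter windows also hold, and 2 CG pairs. The CEBPA window held no match and 41 CG pairs. A second IRF8 window, for a start nearer the coding sequence, held 1 MYB match (17.6% of windows). Such a match is a stretch of letters and not a measured binding site. The IRF8 windows lie shortly before its coding sequence, and sequence farther upstream was not examined. Which start these cells use was not tested. The matches and CG pairs therefore describe these windows, which need not be the main promoter of IRF8.

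GFI1 and KLF4 showed the smallest changes. GFI1 recruits the demethylase KDM1A to silence its targets, and stood at 5.27, 5.38, 5.25 and 5.36 in APRIL columns 1 to 4, against 5.01, 5.29, 5.29 and 5.395 in control columns 1 to 4. Its change was +0.070 ± 0.13 (SE; 95% interval -0.22 to 0.36), and -0.0090 without control column 1. KLF4, which promotes monocyte differentiation, stood at 5.47, 5.59, 5.18 and 5.48 in APRIL columns 1 to 4, against 5.31, 5.57, 5.27 and 5.59 in control columns 1 to 4. The range of the APRIL values of KLF4 covered that of the control values, and its change was -0.0042 ± 0.14 (95% interval -0.32 to 0.32). KLF4 also rested on few reads, 18 in APRIL column 3 and 39 to 156 in the other libraries. A p above the threshold does not show that either gene was the same in both groups, and changes up to the ends of these intervals remain possible.

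**Figure D3:**
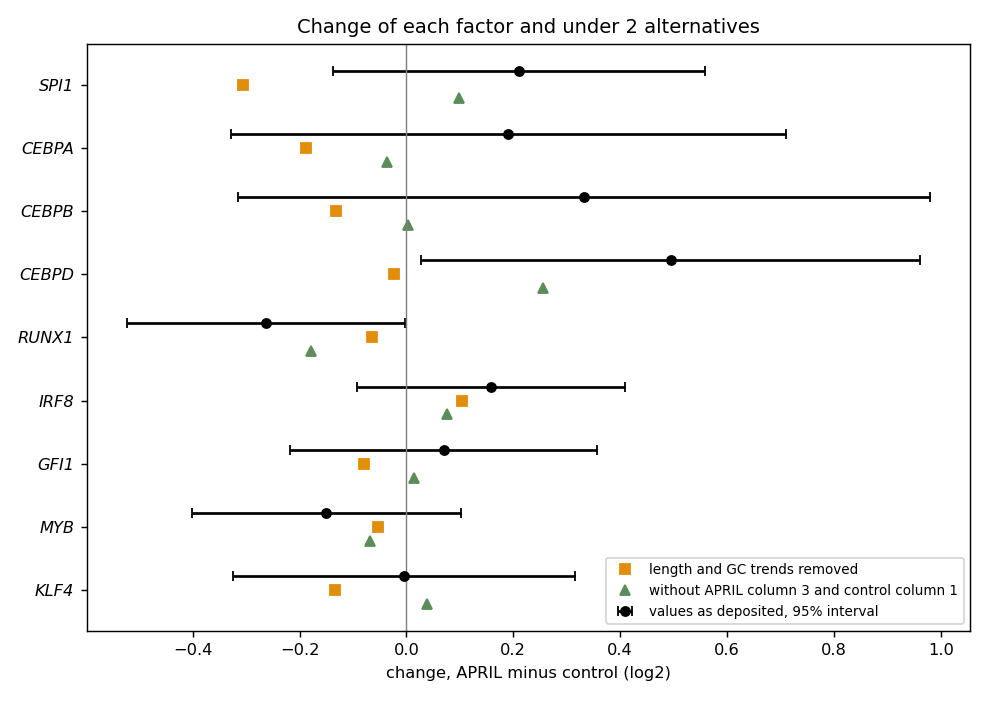
Change of each factor (APRIL minus control, log2; horizontal axis) from the values as deposited with its 95% interval (black), with length and GC trends removed (orange squares) and without APRIL column 3 and control column 1 (green triangles). The intervals of CEBPD and RUNX1 leave out 0 (that of RUNX1 ends at -0.0024), and the orange squares of all factors but IRF8 lie below 0.

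In the authors' deposited table the fold for APRIL over control ran from 0.834 for RUNX1 to 1.41 for CEBPD. The authors' deposited table gives its smallest p-values among the 9 for RUNX1 (0.0357), IRF8 (0.0783) and CEBPD (0.0878).

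Levels could be set side by side per transcript length for the 8 factors with recovered reads. The deposited log2 values cannot be compared between genes. They contain a whole-number divisor for each gene that did not follow transcript length (rank correlation across 10610 genes, rho = -0.0034; genes are not independent of each other), such as 195 for CEBPD and 5277 for CEBPB, whose longest transcripts have 2178 and 1956 bases. As RPKM, the recovered reads scaled by the longest transcript and by the library's recovered total, MYB was the most abundant at 217 ± 23.1 with APRIL and 245 ± 20.2 in control (SD, n = 4). IRF8 followed at 179 ± 6.24 with APRIL and 164 ± 16.03 in control, and SPI1 at 183 ± 22.05 with APRIL and 162 ± 25.7 in control. The libraries of IRF8 and SPI1 overlapped in both groups, while MYB lay above both in every control library and overlapped with SPI1 in the APRIL libraries.

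The next level was GFI1 at 73.1 ± 6.20 with APRIL and 71.2 ± 7.90 in control. CEBPD stood at 58.0 ± 15.1 with APRIL and 41.2 ± 5.96 in control, and CEBPA at 41.1 ± 13.2 with APRIL and 35.7 ± 5.59 in control, and CEBPD and CEBPA overlapped in both groups. GFI1 and CEBPD overlapped only with APRIL, and CEBPA lay above CEBPB in every library. The least abundant were CEBPB at 17.0 ± 5.85 with APRIL and 13.4 ± 3.48 in control, and KLF4 at 9.52 ± 1.58 with APRIL and 9.68 ± 1.16 in control. CEBPB lay above KLF4 within each of the 8 libraries, and the ranges of the pair overlapped over the control libraries. These levels take the longest GENCODE transcript as the length, and the annotation the authors counted on is not given in the sources used here.

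**Figure D4:**
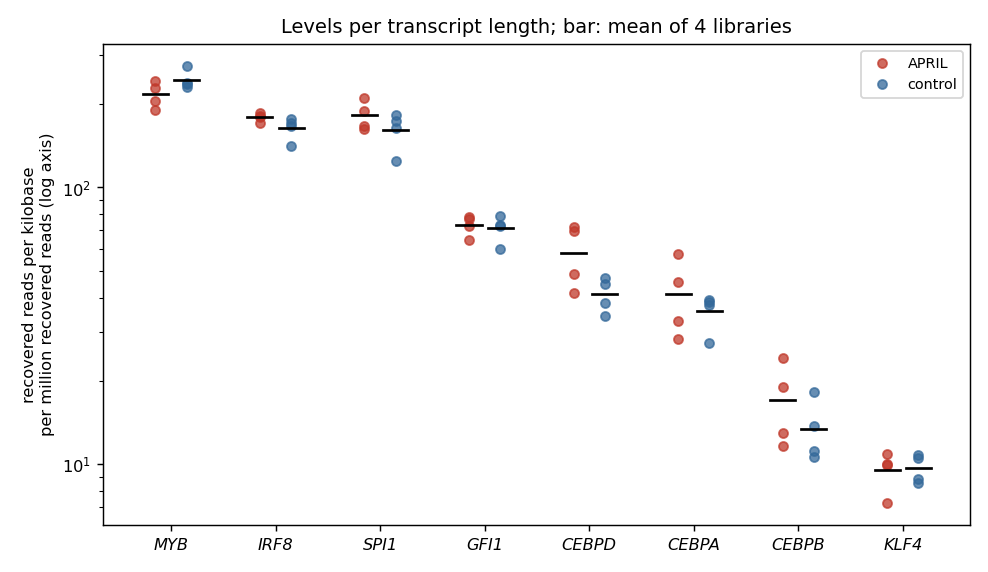
RPKM from recovered reads and the longest transcript (log axis) for the 8 factors with recovered reads, in APRIL libraries (red, left) and control libraries (blue, right); bars are means of 4 libraries. MYB, IRF8 and SPI1 lie above 100 in every library, and KLF4 is near 10.

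The factors were also compared by how alike their 8 values were. Likeness was the root mean square (RMS) difference between 2 genes over the 8 libraries after each was centred on its own mean, in log2 units, and is given as a description. Among the 36 pairs of factors the closest were IRF8 and GFI1 (0.078), SPI1 and IRF8 (0.12) and GFI1 and KLF4 (0.13). The farthest were CEBPB and RUNX1 (0.54) and CEBPB and MYB (0.53). This measure depends on how much each gene varies. The RMS of a gene's own centred values was 0.11 for GFI1, 0.12 for IRF8, 0.15 for KLF4, 0.21 for SPI1 and 0.43 for CEBPB. GFI1 was thus farther from KLF4 than from a gene with no variation. Small differences between such genes therefore need not mean a shared pattern. CEBPD was nearer to CEBPB (0.21) and CEBPA (0.21) than to any other factor. CEBPA, after CEBPD, was nearer to SPI1 (0.24) than to CEBPB (0.28). Among all tested genes the closest to SPI1 were FAM129B (0.041) and ISYNA1 (0.042), to CEBPA SPON2 (0.13) and SIGIRR (0.13), to CEBPB PHLDA2 (0.14) and RP4-728D4.2 (0.14), and to CEBPD NAT6 (0.075) and PQLC1 (0.083). For RUNX1 they were SERTAD2 (0.041) and SH3PXD2A (0.042), and for IRF8 CD97 (0.040) and LAPTM5 (0.041). For GFI1 they were NFATC2IP (0.027) and FEN1 (0.043), for MYB G3BP2 (0.034) and GMPS (0.037), and for KLF4 FCHSD1 (0.033) and SLC35E1 (0.055).

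Relatives of the 9 factors from the same DNA-binding families numbered 17 tested genes, 6 with a positive and 11 with a negative change (median -0.063). None passed in limma over all genes. At an unadjusted p under 0.05, 2 had a higher value and 0 a lower one, where 6.25% and 5.69% of all tested genes did. Leaving out APRIL column 2 gave 4 higher, leaving out APRIL column 4 gave 0, and leaving out APRIL column 3 or any 1 control column gave 1, and the median was +0.054 without APRIL column 3. The 3 smallest p-values were those of IRF7, IRF1 and IRF5. IRF7, which drives type I interferon genes, was at +0.71 ± 0.26 (SE), IRF1, which is induced by interferon, at +0.42 ± 0.17, and IRF5, which is active in inflammatory macrophages, at +0.37 ± 0.18. IRF1 stood at 3.85, 3.84, 4.35 and 3.96 in APRIL columns 1 to 4, against 3.75, 3.24, 3.65 and 3.66 in control columns 1 to 4, without overlap. With the trends removed IRF1 was at +0.48, IRF7 at +0.24 and IRF5 at +0.20. Of the other interferon regulatory factors tested, IRF3 was at +0.26, IRF2 at -0.063 and IRF4 at -0.16. KLF10 was at -0.31, wholly below control, and C/EBP gamma (CEBPG), RUNX2 and RUNX3 had changes of -0.21, -0.20 and -0.17. Of the 17, 1 lay wholly above control (IRF1) and 1 wholly below (KLF10), where 3.62% and 4.19% of all tested genes did.

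Partners and antagonists that act on the factors gave 24 tested genes, 10 positive and 14 negative (median -0.028). At an unadjusted p under 0.05 there were 1 higher and 2 lower, where 6.25% and 5.69% of all tested genes were. In this list 0 passed the adjusted threshold. Leaving out control column 1 gave 0 in either direction. The count of lower genes was 4 without APRIL column 2 and 1 without any other single library, and that of higher genes was 0 without APRIL column 3, control column 3 or control column 4. BATF3, a partner of IRF8 in dendritic cells, was at +0.78 ± 0.33 (SE), and at +0.75 with the trends removed and +0.48 without APRIL column 3. PSIP1, the chromatin tether of KMT2A complexes, was at -0.55 ± 0.21, and at -0.44 with the trends removed and -0.37 without APRIL column 3. It was the 1 gene of the 24 wholly below control, where 4.19% of all tested genes were. NCOR1, a corepressor, was at -0.45 ± 0.19, and at -0.18 with the trends removed and -0.27 without APRIL column 3. CBFB, the partner of RUNX1, was at -0.11 and KDM1A, the partner of GFI1, at -0.046.

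Other transcription factors of the myeloid and stem cell network gave 32 tested genes, 16 positive and 16 negative (median -0.0062). At an unadjusted p under 0.05 there were 2 higher and 3 lower, where 6.25% and 5.69% of all tested genes were. In this list 0 passed the adjusted threshold. The median was -0.12 without control column 1. The count of higher genes was 0 without APRIL column 3, APRIL column 4, control column 1 or control column 3. It was 1 without control column 2 and 3 without APRIL column 2 or control column 4. That of lower genes was 4 without APRIL column 2 and 1 without control column 4. It was 2 without APRIL column 3, APRIL column 4 or control column 1, 2 or 3. ZEB2, a repressor of epithelial genes that is needed for monocyte and dendritic cell development, was at -0.37 ± 0.13 (SE) and MEIS1, the partner of the HOXA proteins, at -0.31 ± 0.11, both wholly below control. With the trends removed ZEB2 and MEIS1 were at -0.055 and -0.12. ETV6, at -0.39, was also wholly below control. In all, 3 of the 32 were, where 4.19% of all tested genes were. JUNB, an AP-1 subunit that restrains myeloid growth, was at +0.60 ± 0.24, and at +0.15 with the trends removed and +0.40 without APRIL column 3.

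Genes known to be driven by PU.1 or the C/EBP factors had 22 positive and 10 negative changes among 32 tested (median +0.18), with 7 higher and 1 lower at an unadjusted p under 0.05, where 6.25% and 5.69% of all tested genes were, and 0 past the adjusted threshold. Without control column 1 there was 1 higher, without APRIL column 4 there were 2 and without control column 3 there were 4. Leaving out APRIL column 2 gave 9 higher. The 1 lower was lost without APRIL column 4 or control column 1. With the trends removed the median was +0.030, with 17 of 32 positive and with 2 higher and 3 lower at an unadjusted p under 0.05. The 3 smallest p-values were those of ELANE, neutrophil elastase, at +0.73 ± 0.25 (SE), CFD, complement factor D, at +0.93 ± 0.32, and FES, a myeloid tyrosine kinase, at +0.37 ± 0.14. These were at +0.12, +0.38 and +0.085 with the trends removed. ELANE was 1 of 3 of these 32 genes wholly above control, where 3.62% of all tested genes were. Markers of granulocyte precursors also had positive changes, 5 of 5, with PRTN3 at +0.58 and AZU1 at +0.49 (median +0.49, or +0.28 when APRIL column 3 was left out and -0.0070 after removal of the trends). Without APRIL column 3 AZU1 was at +0.28 and PRTN3 at +0.40. With the trends removed AZU1 was at +0.049 and PRTN3 at -0.011. All 5 are themselves in the target list, as are 7 of the 10 tested monocyte markers. The summed level of the 3 granulocyte markers with recovered reads ran from 366 to 655 RPKM with APRIL and from 277 to 387 in control, highest in APRIL column 3, and its part in the result was not tested. In a bulk sample a change in the share of cells of a kind and a change in RNA per cell cannot be told apart.

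Targets of MYB (6 tested) had 4 positive and 2 negative changes (median +0.049, or -0.032 without control column 1). At an unadjusted p under 0.05 there were 0, where 11.9% of all tested genes were, or 1 higher without control column 2. ADA was at +0.51 ± 0.28, BCL2 at -0.22 ± 0.13 and MAT2A at -0.16 ± 0.12 (SE), and MAT2A was at -0.10 without APRIL column 3. With the trends removed ADA was at +0.28, BCL2 at -0.0051 and MAT2A at -0.15. ADA rested on few reads, 13 to 48 in the APRIL libraries and 12 to 29 in the control libraries. Genes that GFI1 represses, known largely from mouse, numbered 10 tested, 5 positive and 5 negative (median -0.057). At an unadjusted p under 0.05 there were 0 higher and 1 lower, where 6.25% and 5.69% of all tested genes were. The 1 lower was MEIS1, described above among the other myeloid factors, and it was lost without control column 4. Without APRIL column 2 there was also 1 higher. BAX and CDKN1A were at +0.40 ± 0.21 and +0.33 ± 0.19, and at +0.011 and +0.080 with the trends removed. Without APRIL column 3 BAX was at +0.22 and CDKN1A at +0.21, and without control column 1 CDKN1A was at +0.18.

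**Figure D5:**
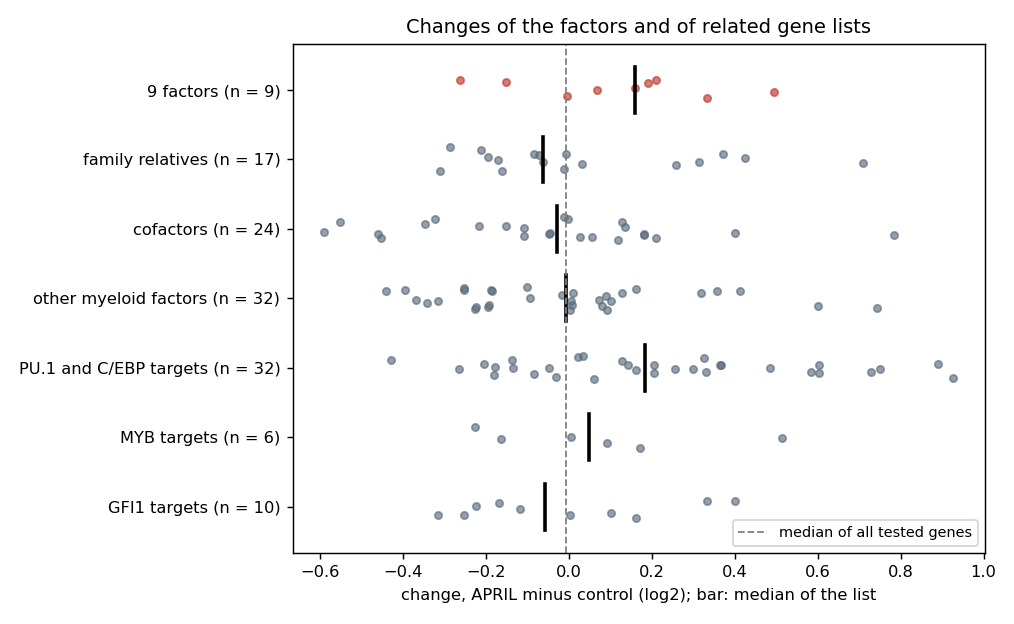
Change of each tested gene (APRIL minus control, log2; horizontal axis) in the 9 factors (red) and in 6 related lists (grey), with the median of each list as a black bar and the median of all tested genes as a dashed line. The medians of the 9 factors (0.16), of the PU.1 and C/EBP targets (0.18) and of the MYB targets (0.049) lie to the right of the dashed line. Every list has genes on both sides of 0.

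Among the marker lists, that of monocytes (10 tested) had a median change of -0.055, and of +0.044 without APRIL column 4, +0.017 with library quality weights and +0.13 in voom. TYROBP was at +0.89, CD14 at +0.60 and VCAN at -0.50. Without APRIL column 3 TYROBP was at +0.50 and VCAN at -0.32, and without control column 1 CD14 was at +0.35. With the trends removed TYROBP was at +0.41, CD14 at +0.30 and VCAN at -0.20. The summed level of the monocyte markers over 8 genes ran from 244 to 358 RPKM with APRIL and from 211 to 254 in control. It was highest in APRIL column 3, and the other APRIL libraries ran from 244 to 282. LYZ, at -0.14, and VCAN had no recovered reads and were not in this sum. The B and plasma cell list (6 tested) had a median of +0.032, with EBF1 at -0.31, CD79A at +0.26 and PAX5 at -0.14. CD79A was at +0.15 when APRIL column 4 was left out and at -0.19 after removal of the trends. EBF1 was at -0.11 and PAX5 at -0.011 after that removal. Leaving out 1 library put PAX5 between -0.24 (APRIL column 2) and +0.074 (APRIL column 3). The summed level of the B and plasma cell markers ran from 42.8 to 46.2 with APRIL and from 40.7 to 47.2 in control. Of the T and NK cell list TRAC was at +0.81 and NKG7 at +0.46. TRAC was at +0.45 without control column 2 and at +0.55 after removal of the trends. NKG7 was at +0.16 when APRIL column 3 was left out and +0.0043 after removal of the trends. The genes CD3D and CD3E were not in the table. The kit does not mark strand, and 4 annotated antisense genes overlap exons of CEBPA (2 genes), CEBPB (CEBPB-AS1) and MYB (MYB-AS1), so reads of these cannot be told apart from those of the factors.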

How the data were processed

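RNA of 8 libraries was measured by sequencing. Per the labels' protocols, the TruSeq RNA v2 kit was used, which selects polyadenylated RNA and marks no strand. The submitters' processing notes name bcl2fastq, TopHat2 2.0.13 and build hg19. For counter, annotation and gene filter, nothing is given in the sources used here. Per the file headers, the authors deposited values scaled by TMM (a trimmed mean of log ratios), which are on a log2 scale. The authors deposited a p-value, a linear fold, the log10 of that p-value, and a sign and signed score made from them, per the file headers. Columns of per-library values left unused numbered 0.

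Each gene was tested in limma 3.58.1 (R 4.3.3; intensity trend, robust, two-sided, Benjamini-Hochberg over 11257 genes at log2 values of 0 or more in at least 4 libraries). 273 genes fell below. Whole reads were recovered by solving each value as log2((reads + 0.5)/divisor) plus the library's constant, with a whole divisor per gene, at a chance expectation under 0.001. With the constants moved, 0 of 502 genes resolved. The recovery and the limma fit were each tested on simulated data. Intervals cover the spread between libraries, not bias. Length and GC content came from the longest GENCODE 29 transcript of 10789 genes and were removed with splines. Other steps used scipy 1.17.1, matplotlib 3.10.9, pandas 2.3.3 and numpy 2.4.6 in Python 3.11.15.

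The factors and lists were chosen with earlier results of these data known. Named are all 9 factors, the 3 genes of each list with the smallest p, and the 2 genes nearest each factor. Others (CBFB, KDM1A, CEBPG, RUNX2, RUNX3, IRF2, IRF3, IRF4, KLF10, ETV6, LYZ) were named after their values were seen. RefSeq promoter windows matched 7 of the 9 factors.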

Additional observations from a re-analysis of the deposited data

Results flagged for a closer look

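In 2 of 18 sets of 4 libraries (9 factors in 2 groups) 1 library stood apart by Dixon's test, where chance flags about 1 in 20. CEBPA in control column 1 was at 7.42, below the other control libraries, with a gap of 0.867 of the group's range. MYB in control column 1 was at 8.79, above the others, with a gap of 0.858 of the range. Both are control column 1, which was also the lowest of all 8 libraries for 6 of the 9 factors. With length and GC trends removed this library stood at 8.04 for CEBPA, against 7.86 to 8.09 in the other control libraries, and at 8.63 for MYB, against 8.53 to 8.56.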

How the results depend on the processing

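Over 18 alternatives, 144 of 160 values of the 9 factors kept their sign and 0 passed the adjusted threshold (smallest adjusted p = 0.231). Alternatives that changed only the filter on low values, the variance model or the test per gene used the same values. Their signs could not differ, so the count of kept signs is partly fixed in advance. With length and GC trends removed, SPI1 turned to -0.31, CEBPA to -0.19, CEBPB to -0.13, CEBPD to -0.024 and GFI1 to -0.079, the median of the 9 to -0.079, that of the PU.1 and C/EBP targets to +0.030, of the granulocyte markers to -0.0070 and of the B cell markers to -0.16, and 892 genes had an unadjusted p under 0.05. With library quality weights CEBPA turned to -0.11, CEBPB to -0.071, GFI1 to -0.013 and KLF4 to +0.020, the median of the 9 was -0.013, and 4 genes were called. The weights were 5.46, 1.33, 0.12 and 1.09 for APRIL columns 1 to 4. For control columns 1 to 4 they were 0.32, 1.03, 1.56 and 2.12. The weighted APRIL mean therefore rests mostly on APRIL column 1. Voom on recovered reads put KLF4 at +0.066. Without APRIL column 3 and control column 1, an alternative chosen after seeing the data, CEBPA was at -0.036 and KLF4 at +0.038, the median of the 9 was +0.014 and that of the MYB targets -0.022, and 846 genes had an unadjusted p under 0.05. Quantile normalization put the MYB targets at -0.018.

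Leaving out each library gave 507 to 2247 genes at an unadjusted p under 0.05 and 0 called. It gave -0.0090 to 0.12 for GFI1, -0.060 to 0.080 for KLF4, 0.092 to 0.28 for SPI1, 0.020 to 0.37 for CEBPA, 0.10 to 0.50 for CEBPB, 0.34 to 0.65 for CEBPD, -0.31 to -0.19 for RUNX1, 0.087 to 0.19 for IRF8 and -0.19 to -0.093 for MYB. Medians ran from 0.054 to 0.19 for the 9 factors, -0.10 to 0.054 for the family relatives, -0.047 to -0.00013 for the cofactors, -0.12 to 0.027 for the other myeloid factors, 0.11 to 0.24 for the PU.1 and C/EBP targets, -0.032 to 0.096 for the MYB targets and -0.076 to -0.028 for the GFI1 targets. The cause of these shifts was not tested. CEBPB, with 39 to 129 reads, was below the stricter filter (a mean log2 value of 2), while KLF4, with 18 to 156 reads, was not. Both filters and the intensity trend in limma used the deposited values. These contain each gene's divisor, so they do not rank genes by level. RUNX1 had no recovered reads and so no voom value. A quasi-likelihood count test was not run. No paired analysis was possible because the table's columns carry no replicate numbers.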
